A study of Arabidopsis thaliana with 9 samples.

Results

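The carotenoid, MEP and tocopherol pathway genes are 33 *Arabidopsis* genes, chosen by locus for the steps they encode. They were followed among the 37363 genes of the TPM tables (TPM, a transcript level scaled per gene length and per library). Of the 33, 16 act in carotenoid synthesis, the xanthophyll cycle or carotenoid cleavage, 7 in the MEP pathway, 3 in the supply of prenyl diphosphates and 6 in tocopherol synthesis. The remaining gene is *OR*, a regulator of phytoene synthase. All 33 were found, and 32 passed the filter on low values (at least 1 TPM in at least 3 of 9 libraries). The exception, *GGPPS11*, was listed at 0 TPM in every library.

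The MEP pathway of plastids makes the C5 units IPP and DMAPP, which are joined into geranylgeranyl diphosphate. Phytoene synthase commits this precursor to carotenoids, which in leaves sit in the photosystems, gather light and quench excited chlorophyll and singlet oxygen. The phytyl chain of tocopherols derives from the same precursor and their head group from homogentisate, and tocopherols protect thylakoid lipids.

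Leaf RNA was sequenced from 4-week-old rosettes of wild type plants, ecotype Columbia, in 9 libraries, each from the pooled leaves of 3 plants. Weedy plants (biological low R:FR, W, 3 libraries) stood beside a surrogate weed, a stand of grass, whose reflected light lowered the red to far-red ratio (R:FR) to about 0.3. Far-red plants (artificial low R:FR, FR, 3 libraries) received a ratio of about 0.3 from LEDs, and weed-free plants (WF, 3 libraries) stayed at about 1.4 according to the sample labels. All plants had 3 weeks of high R:FR, and the weedy and far-red plants then had 1 week of treatment. The grass and the LEDs were set up in separate growth chambers, so an effect of the chamber and one of the far-red source cannot be told apart. The paper describes a divider between weed-free plants and the grass. It does not say whether weed-free plants also stood in the chamber of the LEDs. The same limit may thus hold between far-red and weed-free leaves. The pools are described as coming from independent experiments, and the labels do not say which experiment a replicate number belongs to. A level in bulk leaf RNA cannot tell fewer cells of a type from less RNA per cell.

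The aligned sequence behind the TPM tables came to between 4.37 and 14.1 gigabases per library. Mean coverage of the 32 members ranged from 0.963 to 3740 reads per base, and 31 of them had at least 10 reads per base in every library. The exception was *BCH2*, at 0.963 to 6.67 reads per base in weedy leaves and 1.55 to 5.49 in weed-free leaves. The member means over 9 libraries ranged from 3.09 to 320 TPM, with a median of 27.1 TPM against 7.48 TPM over all genes tested. Leaf genes such as *RBCS1A* and *LHCB1.3* reached up to 68400 TPM, while 4 floral markers summed to at most 1.05 TPM with *AP1* at 0, and 2 root markers to at most 0.553 TPM.

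Members were compared on log2(TPM + 1) with limma over all 17784 genes that passed the filter, and a gene is said to pass at a Benjamini-Hochberg adjusted p under 0.05. On this scale the change of a low gene is understated. Most members that passed did so between weedy and far-red leaves. Against far-red leaves, 18 of 32 members were lower in weedy leaves, and 13.6% of all genes tested were. A further 2 members, *VDE* and *VTE5*, were higher, against 23.8% of all genes. The median log2 difference was -0.41 over the members and 0.15 over all genes tested.

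Against weed-free leaves far fewer members passed. In weedy leaves 1 member was lower, *DXR*, and 0 were higher, where 3.37% of all genes were lower and 6.20% higher. With no adjustment 11 members had a p under 0.05 with weedy lower and 1 with weedy higher, where 1665 and 3508 of all 17784 genes did. In far-red leaves 2 members were higher, *BCH1* and *VTE4*, and 0 were lower, where 2.53% of all genes were higher and 1.24% lower. With no adjustment 8 members had such a p with far-red higher and 1 with far-red lower, where 1844 and 1782 of all 17784 genes did. Far-red and weed-free libraries of the same number deviated together (correlations of 0.166 to 0.307). Replicates 1 and 2 of these 2 treatments also correlated across numbers (0.136 and 0.08). With the number as a block in the fit 7 members were higher and 1 was lower, where 4.61% of all genes were higher and 3.65% lower. The median log2 difference from weed-free was -0.22 in weedy leaves (0.11 over all genes) and 0.13 in far-red leaves (-0.04 over all genes). The comparisons share libraries and are not independent of each other. For 25 of 32 members the weed-free mean lay between the means of the 2 low R:FR treatments. This was not counted over all genes, so it is not read as a trait of the members.

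**Figure D1:**
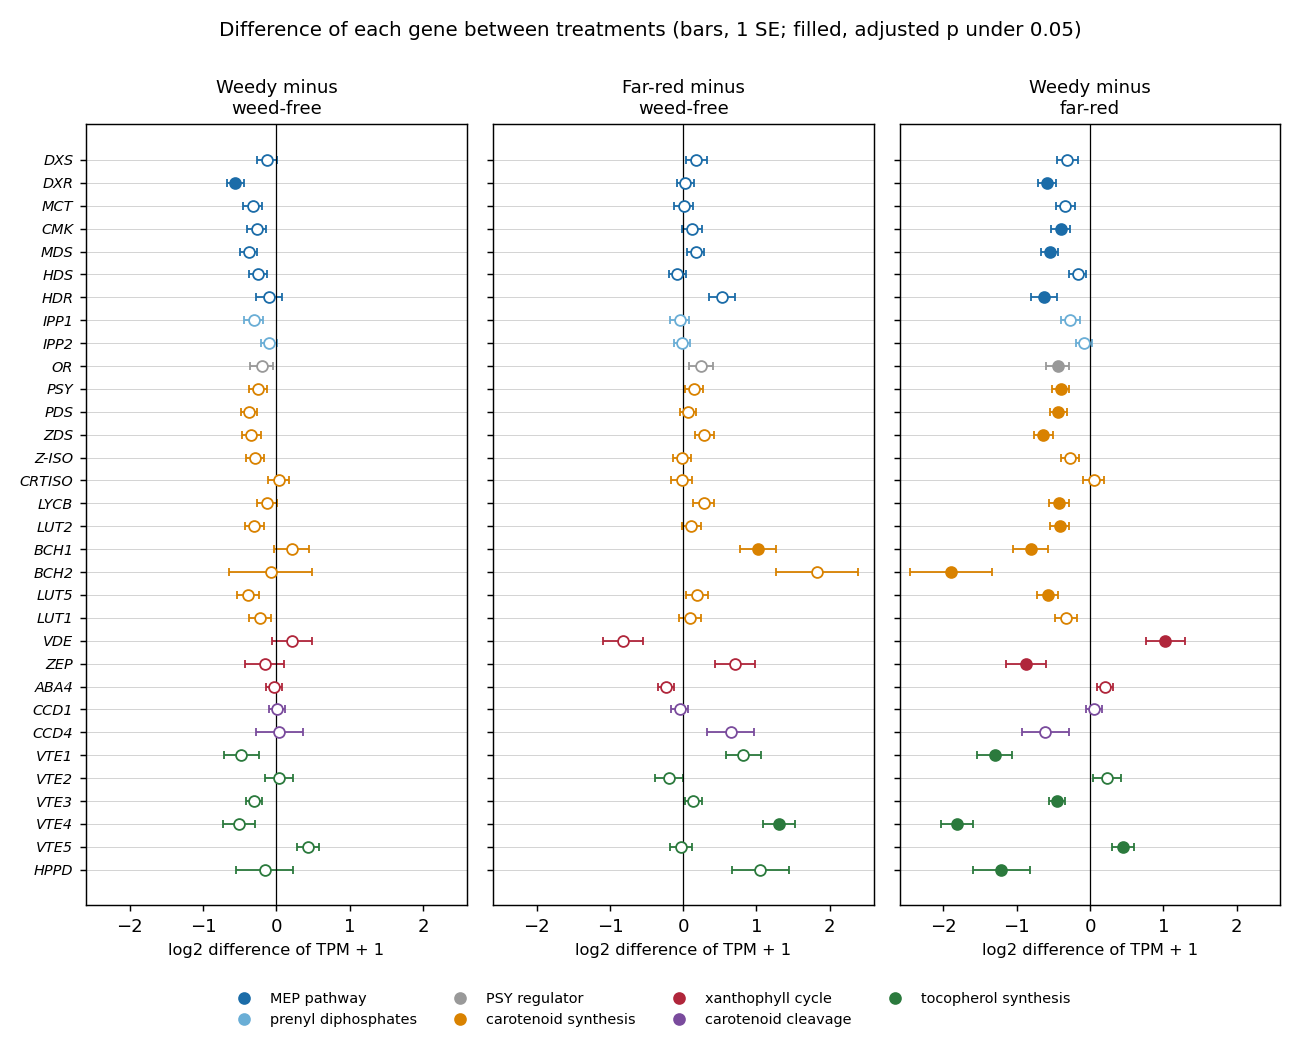
Log2 difference of TPM + 1 for the 32 members tested, in weedy minus weed-free, far-red minus weed-free and weedy minus far-red, with bars of 1 SE and colours for the pathway. Filled points have an adjusted p under 0.05: 1 lower in the left panel, 2 higher in the middle one, and 18 lower with 2 higher in the right one.

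The 4 members that were lower by more than 1 on the log2 scale in weedy than in far-red leaves were *BCH2*, *VTE4*, *VTE1* and *HPPD*. The sequences upstream of the annotated gene start of *BCH2*, *VTE4* and *VTE1* are given as examples, so that the motifs below can be seen in place. They are the 250 bases before the start, read 5′ to 3′ on the strand of the gene from the RefSeq TAIR10.1 assembly, at chr5:21337127-21337376 (minus strand) for *BCH2*, chr1:24136110-24136359 (minus) for *VTE4* and chr4:15804534-15804783 (plus) for *VTE1*. Capitals mark matches to the G-box (CACGTG), the PBE-box (CACATG) or the CCA1-binding site (AAAAATCT) on either strand. The window of *VTE1* also holds a serine tRNA gene, AT4G32765.
*BCH2*: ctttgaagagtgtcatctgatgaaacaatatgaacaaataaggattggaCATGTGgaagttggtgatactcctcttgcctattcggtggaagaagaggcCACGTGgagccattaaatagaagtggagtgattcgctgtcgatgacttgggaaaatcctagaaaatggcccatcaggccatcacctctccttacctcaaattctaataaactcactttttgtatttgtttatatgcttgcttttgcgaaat
*VTE4*: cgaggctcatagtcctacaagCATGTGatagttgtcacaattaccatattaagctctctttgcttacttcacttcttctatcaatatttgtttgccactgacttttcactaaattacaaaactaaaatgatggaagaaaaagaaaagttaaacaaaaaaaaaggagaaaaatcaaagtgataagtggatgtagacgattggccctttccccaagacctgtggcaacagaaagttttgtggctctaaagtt
*VTE1*: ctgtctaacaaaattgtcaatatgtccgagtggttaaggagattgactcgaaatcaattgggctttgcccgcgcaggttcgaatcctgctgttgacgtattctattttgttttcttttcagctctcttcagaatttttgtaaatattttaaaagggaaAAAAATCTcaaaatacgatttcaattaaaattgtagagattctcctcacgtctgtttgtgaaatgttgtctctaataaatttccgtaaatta

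The G-box and PBE-box are known as sites of bHLH factors such as the PIFs, the G-box also of the bZIP factor HY5, and the CCA1-binding site of the morning clock factors CCA1 and LHY. *BCH2* held a G-box and a PBE-box, *VTE4* a PBE-box and *VTE1* a CCA1-binding site. Over all 33 members a G-box was found upstream of 4 (12.1%), against 6.49% of 27437 nuclear protein-coding genes. A PBE-box was found upstream of 5 members (15.2%, against 11.1%) and a CCA1-binding site upstream of 5 (15.2%, against 6.69%). The evening element (AAAATATCT) was in 0 member windows, against 2.36% of all. The CCA1-binding site lay upstream of *BCH1*, *GGPPS11*, *VTE1*, *VTE2* and *Z-ISO*, of which *VTE2* and *Z-ISO* passed in none of the comparisons. These matches describe letters in a window and were not tested as sites.

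The first step of the MEP pathway, DXP synthase, is encoded by *DXS* (AT4G15560) and is regarded as its main control point. *DXS* stood at 99, 103 and 82.7 TPM in weedy leaves, 121, 121 and 110 TPM in far-red leaves and 114, 111 and 87.3 TPM in weed-free leaves. The libraries of the 2 low R:FR treatments did not overlap, but the log2 difference of weedy from far-red leaves (-0.31 ± 0.14, SE) did not pass (adjusted p = 0.096).

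*DXR* (AT5G62790, chr5:25214125-25217469) encodes the reductoisomerase of the next step and was the only member to pass between weedy leaves and weed-free. It had 29.9, 38.1 and 36.6 TPM in weedy leaves, 53.3, 51.6 and 53.6 TPM in far-red leaves and 55.0, 53.6 and 46.9 TPM in weed-free leaves. The weedy libraries lay below all 6 others, which overlapped among themselves. The log2 difference was -0.56 ± 0.12 from weed-free (adjusted p = 0.0224) and -0.59 ± 0.12 from far-red leaves (adjusted p = 0.00432). The call against weed-free was lost without weedy replicate 1, weed-free replicate 1 or weed-free replicate 2 (adjusted p from 0.0822 to 0.102).

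Of the later MEP enzymes, 3 were lower in weedy than in far-red leaves. *CMK* (AT2G26930), the kinase of the pathway, had 11.7, 11.6 and 15.8 TPM in weedy leaves, 17.3, 16.6 and 18 TPM in far-red leaves and 16.2, 15.1 and 16.1 TPM in weed-free leaves. *MDS* (AT1G63970), which closes the cyclic diphosphate, had 90.2, 115 and 98.4 TPM in weedy leaves, 151, 149 and 145 TPM in far-red leaves and 130, 134 and 130 TPM in weed-free leaves. *HDR* (AT4G34350), which releases IPP and DMAPP, had 87.9, 93.3 and 69.8 TPM in weedy leaves, 151, 140 and 102 TPM in far-red leaves and 104, 94.9 and 71.6 TPM in weed-free leaves. In each of the 3 genes no weedy library reached the lowest far-red one. For *HDR* far-red replicate 3 lay within the weed-free range and the other two far-red libraries above it. With the replicate number as a block *HDR* passed as higher in far-red leaves than in weed-free leaves (0.53, adjusted p = 0.016). Without the block it did not pass (adjusted p = 0.126). Weedy leaves had a log2 difference from far-red leaves of -0.40 for *CMK* (adjusted p = 0.0375), -0.55 for *MDS* (adjusted p = 0.00439) and -0.63 for *HDR* (adjusted p = 0.0201). The call for *MDS* passed in all 9 fits that each left out 1 library. *HDR* lost it without weedy replicate 3 or far-red replicate 1 or 2 (adjusted p from 0.0626 to 0.0856), and *CMK* in 7 of the 9, passing only without weedy replicate 3 or weed-free replicate 3 (otherwise 0.0538 to 0.12).

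The *MCT* gene (the cytidyl transfer step) had between 4.05 and 6.34 TPM and *HDS*, the synthase before *HDR*, between 54.0 and 74.0 TPM over the 9 libraries, and neither passed in any comparison. All 7 MEP genes had a log2 difference below 0 both from far-red leaves and from weed-free in weedy leaves, with medians of -0.40 and -0.27.

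IPP and DMAPP are interconverted by the isomerases *IPP1* and *IPP2*. *IPP1* (AT5G16440) had 25.7, 31.2 and 33.9 TPM in weedy leaves, 35.9, 33.5 and 39.9 TPM in far-red leaves and 37.6, 38.1 and 37.1 TPM in weed-free leaves. *IPP2* (AT3G02780) had 48.1, 45.7 and 47.8 TPM in weedy leaves, 49.0, 47.6 and 53.5 TPM in far-red leaves and 49.3, 52.4 and 50.1 TPM in weed-free leaves. Both had their 3 weedy libraries below the 3 weed-free ones, by log2 differences of -0.31 and -0.10 that did not pass (adjusted p = 0.13 and 0.557). *IPP2* shares 712 exon bases with a gene on the opposite strand.

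*GGPPS11* (AT4G36810) encodes the main plastid synthase of geranylgeranyl diphosphate. All of its 1492 exon bases in the annotation are covered by a long noncoding RNA gene on the opposite strand, AT4G36808. AT4G36808 was listed at 31.7, 38.3 and 48.7 TPM in weedy leaves, 71.3, 59.9 and 66.4 TPM in far-red leaves and 51.8, 53.9 and 62.8 TPM in weed-free leaves, while *GGPPS11* stood at 0. As listed for AT4G36808, the log2 difference of weedy from far-red leaves was -0.74 ± 0.16 (adjusted p = 0.00461). The sources used here do not say whether strand was used for the TPM, so these values cannot tell reads of the 2 genes apart. The deposited counts listed 1106 to 6562 reads for AT4G36808 and 24 to 94 for *GGPPS11*. Where genes overlap those counts followed the opposite strand (below), so no direction is given for *GGPPS11*.

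Phytoene synthase, the committed step of carotenoid synthesis, is encoded in *Arabidopsis* by the single gene *PSY* (AT5G17230, chr5:5659554-5662997). *PSY* had 82.2, 77.8 and 95.6 TPM in weedy leaves, 115, 117 and 105 TPM in far-red leaves and 98.3, 95.7 and 110 TPM in weed-free leaves. *OR* (AT5G61670), whose product binds and stabilises PSY, had 22.7, 26.1 and 18.1 TPM in weedy leaves, 33.7, 31.1 and 26.6 TPM in far-red leaves and 27.1, 27.7 and 22.0 TPM in weed-free leaves. Both genes were lower in all 3 weedy libraries than in any far-red one, and the far-red and weed-free libraries overlapped. The log2 difference of weedy from far-red leaves was -0.40 ± 0.12 for *PSY* (adjusted p = 0.0237) and -0.44 ± 0.16 for *OR* (adjusted p = 0.0448). *PSY* lost its call without weedy replicate 1 or 2 or far-red replicate 1 or 2 (adjusted p from 0.0636 to 0.0886). *OR* lost it in 6 of 9 such fits, passing without weedy replicate 2, far-red replicate 3 or weed-free replicate 3 (otherwise 0.0587 to 0.161).

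Phytoene is turned into lycopene by the desaturases *PDS* and *ZDS* and the isomerases *Z-ISO* and *CRTISO*. *PDS* (AT4G14210) had 20.6, 23.9 and 23.1 TPM in weedy leaves, 31.2, 30 and 30.6 TPM in far-red leaves and 30.6, 29.5 and 28.1 TPM in weed-free leaves. *ZDS* (AT3G04870) had 13.9, 14.6 and 17.8 TPM in weedy leaves, 27.2, 24.3 and 22.0 TPM in far-red leaves and 19.8, 18.8 and 20.6 TPM in weed-free leaves. For both desaturases the weedy libraries were lowest without overlap, and for *ZDS* the far-red libraries were also above the weed-free ones. The log2 difference of weedy from far-red leaves was -0.43 ± 0.11 for *PDS* (adjusted p = 0.0114) and -0.64 ± 0.13 for *ZDS* (adjusted p = 0.00393). *ZDS* passed in all 9 fits that each left out 1 library, and *PDS* in all but that without far-red replicate 1 (adjusted p = 0.0541). Of the isomerases, *Z-ISO* ranged from 9.55 to 14.2 TPM and *CRTISO* from 8.3 to 11.5 TPM, and neither passed.

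Lycopene is cyclised by *LYCB* toward β-carotene and, together with *LUT2*, toward α-carotene. *LYCB* (AT3G10230) had 32.8, 31.0 and 23.1 TPM in weedy leaves, 39.3, 39.1 and 37.3 TPM in far-red leaves and 34.5, 32 and 28.3 TPM in weed-free leaves. *LUT2* (AT5G57030) had 20, 20.2 and 26.4 TPM in weedy leaves, 32, 30.3 and 26.6 TPM in far-red leaves and 26.5, 28.4 and 27.2 TPM in weed-free leaves. For both genes the weedy libraries lay below the far-red ones, with weedy replicate 3 and far-red replicate 3 nearly meeting for *LUT2*. From far-red leaves, weedy leaves had a log2 difference of -0.42 ± 0.14 for *LYCB* (adjusted p = 0.0392) and -0.41 ± 0.13 for *LUT2* (adjusted p = 0.0335). *LUT2* lost its call without weedy or far-red replicates 1 or 2 (adjusted p from 0.0947 to 0.134), and *LYCB* kept it only without weedy replicate 1, weedy replicate 2 or weed-free replicate 3 (otherwise 0.0505 to 0.115).

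The carotene rings are hydroxylated by the non-heme enzymes *BCH1* and *BCH2* and by the cytochromes P450 *LUT5* and *LUT1*. *BCH2* (AT5G52570, chr5:21334793-21337126) had 1.78, 1.12 and 0.169 TPM in weedy leaves, 10.5, 8.68 and 2.2 TPM in far-red leaves and 1.24, 1.82 and 0.288 TPM in weed-free leaves. *BCH1* (AT4G25700) had 14.5, 10 and 9.91 TPM in weedy leaves, 24.9, 26.7 and 13.0 TPM in far-red leaves and 9.7, 10.1 and 9.2 TPM in weed-free leaves. *LUT5* (AT1G31800) had 13.7, 14.6 and 21.0 TPM in weedy leaves, 24.2, 23.4 and 26.2 TPM in far-red leaves and 20.9, 20.1 and 23.5 TPM in weed-free leaves. For both *BCH* genes the far-red libraries lay above all weed-free ones, with far-red replicate 3 much nearer to them than replicates 1 and 2. For *BCH1* it fell below weedy replicate 1.

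*BCH2* had the widest gap of the members between weedy and far-red leaves, with a mean in weedy leaves of 0.143 times that in far-red leaves and a log2 difference of -1.90 ± 0.56 (adjusted p = 0.034). The log2 difference was -0.81 ± 0.24 for *BCH1* (adjusted p = 0.024) and -0.58 ± 0.15 for *LUT5* (adjusted p = 0.0143). The weedy and weed-free libraries of *BCH2* had only 0.963 to 6.67 reads per base, so its ratios rest on low values. Against weed-free leaves *BCH1* was higher in far-red leaves by 1.02 ± 0.24 (adjusted p = 0.0447), while *BCH2*, with a mean 6.4 times as high, did not pass (1.82 ± 0.56, adjusted p = 0.125). *BCH2* passed with the replicate number as a block (adjusted p = 0.00137) and without far-red replicate 3 (2.39, adjusted p = 0.00749). It failed in the other 8 fits that each left out 1 library (adjusted p from 0.116 to 0.4). It also failed with the TPM rescaled by median ratios (adjusted p = 0.0891). *BCH1* kept its call against weed-free only without far-red replicate 3 of the 9 that each left out 1 library (otherwise 0.053 to 0.191). Between weedy and far-red leaves *BCH1* lost its call without weedy replicate 2 or 3 or far-red replicate 1 or 2 (adjusted p from 0.0698 to 0.0908). *BCH2* lost it without those or weed-free replicate 1 (0.0567 to 0.115), and *LUT5* without weedy replicate 1 (0.0612). *LUT1* ranged from 4.25 to 7.01 TPM and did not pass.

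**Figure D2:**
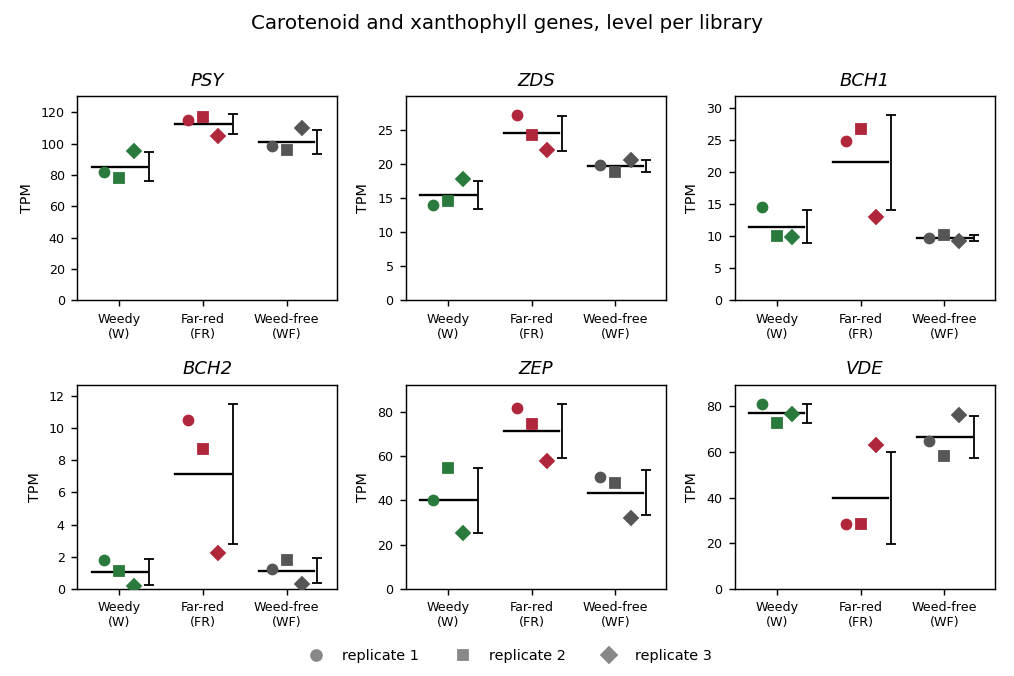
TPM of 6 carotenoid genes in each library, with weedy, far-red and weed-free leaves from left to right, symbols for the replicate, a line at the mean and a bar of 1 SD (n = 3). *PSY*, *ZDS* and *ZEP* separated the 2 low R:FR treatments without overlap, and far-red replicate 3 sat apart from replicates 1 and 2 for *BCH1* (13.0 TPM), *BCH2* (2.2 TPM) and *VDE* (63.2 TPM).

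The xanthophyll cycle converts violaxanthin to zeaxanthin in strong light through VDE and back through ZEP. The genes of these opposing enzymes differed between weedy and far-red leaves in opposite directions. *VDE* (AT1G08550, chr1:2706868-2709988) had 81.2, 72.9 and 76.5 TPM in weedy leaves, 28.2, 28.4 and 63.2 TPM in far-red leaves and 64.7, 58.3 and 76.4 TPM in weed-free leaves. *ZEP* (AT5G67030) had 40.1, 54.6 and 25.3 TPM in weedy leaves, 81.7, 74.5 and 57.6 TPM in far-red leaves and 50.6, 48.0 and 31.9 TPM in weed-free leaves. The weedy libraries lay above the far-red ones for *VDE* and below them for *ZEP*. For *VDE* far-red replicate 3 lay within the weed-free range.

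The log2 difference of weedy from far-red leaves was 1.03 ± 0.27 for *VDE* (adjusted p = 0.0151) and -0.87 ± 0.27 for *ZEP* (adjusted p = 0.0328). Against weed-free leaves the differences in far-red leaves, -0.82 ± 0.27 for *VDE* and 0.71 ± 0.27 for *ZEP*, did not pass (adjusted p = 0.121 and 0.177). Both passed with the replicate number as a block (adjusted p = 0.0495 and 0.0183), and *VDE* without far-red replicate 3 (-1.19, adjusted p = 0.000145). *VDE* failed in the other 8 fits that each left out 1 library (0.158 to 0.394) and *ZEP* in all 9 (0.0787 to 0.482). With the TPM rescaled by median ratios neither passed (0.0897 and 0.209). Between weedy and far-red leaves *VDE* lost its call without weedy replicate 1 or far-red replicate 1 or 2 (adjusted p from 0.0517 to 0.0601). *ZEP* lost it without weedy replicate 1 or 3 or far-red replicate 1 or 2 (0.0759 to 0.113). *VDE* shares 464 exon bases with the opposite strand. *ABA4*, needed for neoxanthin, ranged from 22.1 to 30.6 TPM and did not pass.

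The cleavage dioxygenases make apocarotenoids, and *CCD4* is known to degrade β-carotene in leaves and seeds. *CCD1* ranged from 96.3 to 115 TPM over the 9 libraries. *CCD4* ranged from 53.4 to 165 TPM, with weedy replicate 3 and weed-free replicate 3 (75.5 TPM) as its 2 lowest libraries. Neither passed in any comparison.

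Tocopherol synthesis held the members with the smallest adjusted p. *VTE4* (AT1G64970, chr1:24134085-24136109) encodes γ-tocopherol methyltransferase, the last step to α-tocopherol. *VTE4* had 16.3, 16.5 and 11.3 TPM in weedy leaves, 64.8, 65.1 and 36.4 TPM in far-red leaves and 24.1, 20.3 and 19.1 TPM in weed-free leaves. The 3 treatments did not overlap, with weed-free in the middle. *VTE1* (AT4G32770, chr4:15804784-15808084), the tocopherol cyclase, had 6.12, 8.72 and 4.83 TPM in weedy leaves, 21.5, 18.8 and 12.5 TPM in far-red leaves and 11.5, 9.58 and 7.27 TPM in weed-free leaves. Its far-red libraries lay above all others, while the weedy and weed-free ranges overlapped.

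The log2 difference of weedy from far-red leaves was -1.82 ± 0.22 for *VTE4* (adjusted p = 0.000512) and -1.30 ± 0.24 for *VTE1* (adjusted p = 0.00262). The weedy mean was 0.265 times the far-red one for *VTE4* and 0.372 times for *VTE1*. Both passed in all 9 fits that each left out 1 library. Against weed-free leaves *VTE4* was higher in far-red leaves by 1.31 ± 0.22 (adjusted p = 0.0147), a call lost without far-red replicate 1 or 2 or weed-free replicate 2 (0.056 to 0.073). *VTE1* did not pass there (0.82 ± 0.24, adjusted p = 0.0819), but did with the replicate number as a block (adjusted p = 0.0114) and without far-red replicate 3 (1.04, adjusted p = 0.00976). It failed in the other 8 fits that each left out 1 library (0.0677 to 0.297) and with the TPM rescaled by median ratios (0.121).

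*HPPD* (AT1G06570) makes homogentisate, the head group precursor of tocopherols and plastoquinone. *HPPD* had 13.9, 17.2 and 6.57 TPM in weedy leaves, 35.3, 35.4 and 18.4 TPM in far-red leaves and 17.7, 14.0 and 9.27 TPM in weed-free leaves. *VTE3* (AT3G63410), the methyltransferase shared with plastoquinone synthesis, had 253, 259 and 287 TPM in weedy leaves, 382, 362 and 346 TPM in far-red leaves and 334, 349 and 306 TPM in weed-free leaves. *VTE5* (AT5G04490), the phytol kinase that returns phytol from chlorophyll breakdown to tocopherols, had 24.2, 24.0 and 16.9 TPM in weedy leaves, 16.6, 15.7 and 14.0 TPM in far-red leaves and 16.3, 16.1 and 14.7 TPM in weed-free leaves. *HPPD* and *VTE3* were lower in every weedy library than in any far-red one, and *VTE5* was higher. In each treatment replicate 3 was the lowest *HPPD* library.

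The log2 difference of weedy from far-red leaves was -1.21 ± 0.39 for *HPPD* (adjusted p = 0.0416), -0.45 ± 0.11 for *VTE3* (adjusted p = 0.0113) and 0.45 ± 0.15 for *VTE5* (adjusted p = 0.0322). *HPPD*, at a mean 2.17 times that of weed-free in far-red leaves, did not pass there (1.05 ± 0.39, adjusted p = 0.179), but did with the replicate number as a block (adjusted p = 0.00331). It failed there in all 9 fits that each left out 1 library (0.0677 to 0.492) and under median-ratio scaling (0.172). Between weedy and far-red leaves *VTE3* lost its call without far-red replicate 1 (adjusted p = 0.0603). *HPPD* lost it without weedy replicate 1 or 3, far-red replicate 1 or 2 or weed-free replicate 2 (0.0638 to 0.139). *VTE5* lost it without weedy replicate 1 or 2 or any far-red replicate (0.0606 to 0.116), and also under median-ratio scaling (0.28, adjusted p = 0.227). *VTE2*, which joins homogentisate to phytyl diphosphate, ranged from 3.29 to 6.07 TPM and did not pass.

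**Figure D3:**
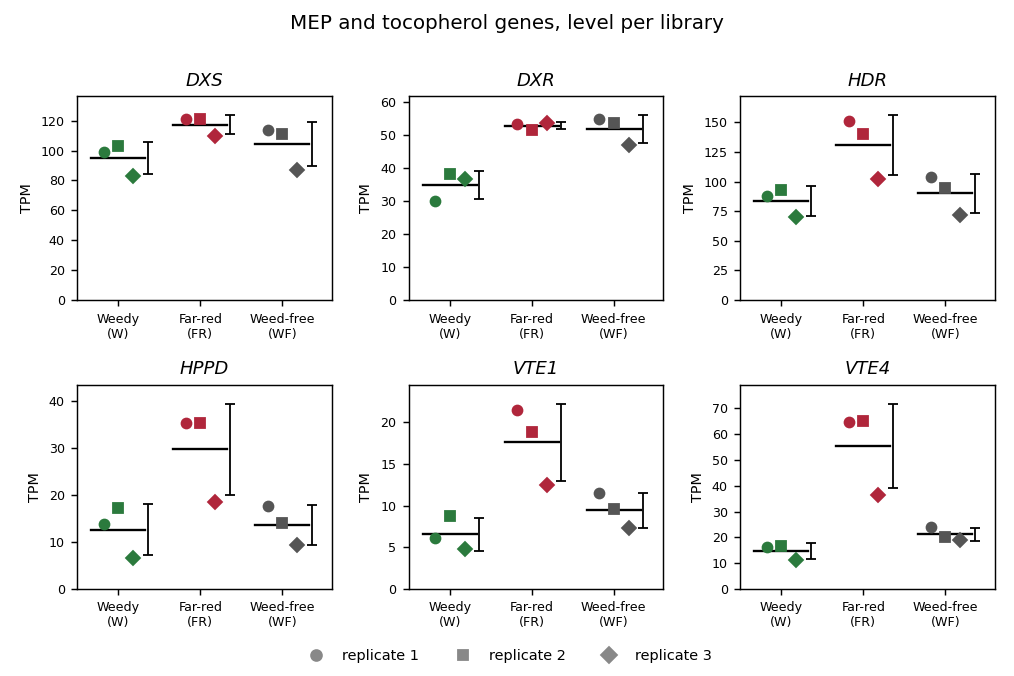
TPM of 6 MEP and tocopherol genes in each library, with weedy, far-red and weed-free leaves from left to right, symbols for the replicate, a line at the mean and a bar of 1 SD (n = 3). The weedy libraries of *DXR* lay below the other 6, and *VTE4* reached 36.4 to 65.1 TPM in far-red leaves against at most 24.1 TPM elsewhere.

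By pathway, the members lower in weedy than in far-red leaves were 8 of 11 in carotenoid synthesis, 1 of 3 in the xanthophyll cycle, 0 of 2 in cleavage, 4 of 7 in the MEP pathway, 0 of 2 tested prenyl diphosphate genes, 4 of 6 in tocopherol synthesis, and *OR*. The libraries did not overlap, with weedy lower, for 21 of 32 members against 17.9% of all genes tested, and with weedy higher for 3 against 35.2%. By an exact permutation test of 3 libraries against 3 no p can be under 0.1, which such members reach. Of the 18 that were lower, 17 had means in the order weedy, weed-free, far-red. Since these 18 were called with weedy below far-red, only the place of weed-free was open, and all genes were not counted. With another scaling, by median ratios, 23 members were lower and 1 higher, against 21.7% of all genes lower, the median member difference was -0.59 and the median of all genes moved to 0.01. Under that scaling 47.7% of the 7388 genes called were higher, against 63.7% of 6658 in the TPM as deposited.

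The number of members that were lower depended on single libraries. It was 11 without weedy replicate 1, 6 without far-red replicate 1 and 8 without far-red replicate 2, with 13 to 19 in the other 6 fits. Calls over all 17784 genes fell as well, to 1813, 1580 and 1646 lower in these 3 fits, against 2418 with all libraries. With any of these 3 libraries left out 0 members were higher, where 2391, 2163 and 2618 of all genes were, against 4240. Far-red replicate 3 was below far-red replicates 1 and 2 in 14 of the 18 members, and weedy replicate 3 was below far-red replicate 3 in all 18. In a fit chosen after seeing the data, without the replicate 3 libraries of all 3 treatments, 21 members were lower and 2 higher in weedy than in far-red leaves, against 18.2% and 27% of all genes. Against weed-free that fit gave 12 lower and 3 higher in weedy leaves, where 9.02% of all genes were lower and 19.4% higher. In far-red leaves it gave 1 lower and 9 higher, where 6.82% of all genes were lower and 10.5% higher.

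**Figure D4:**
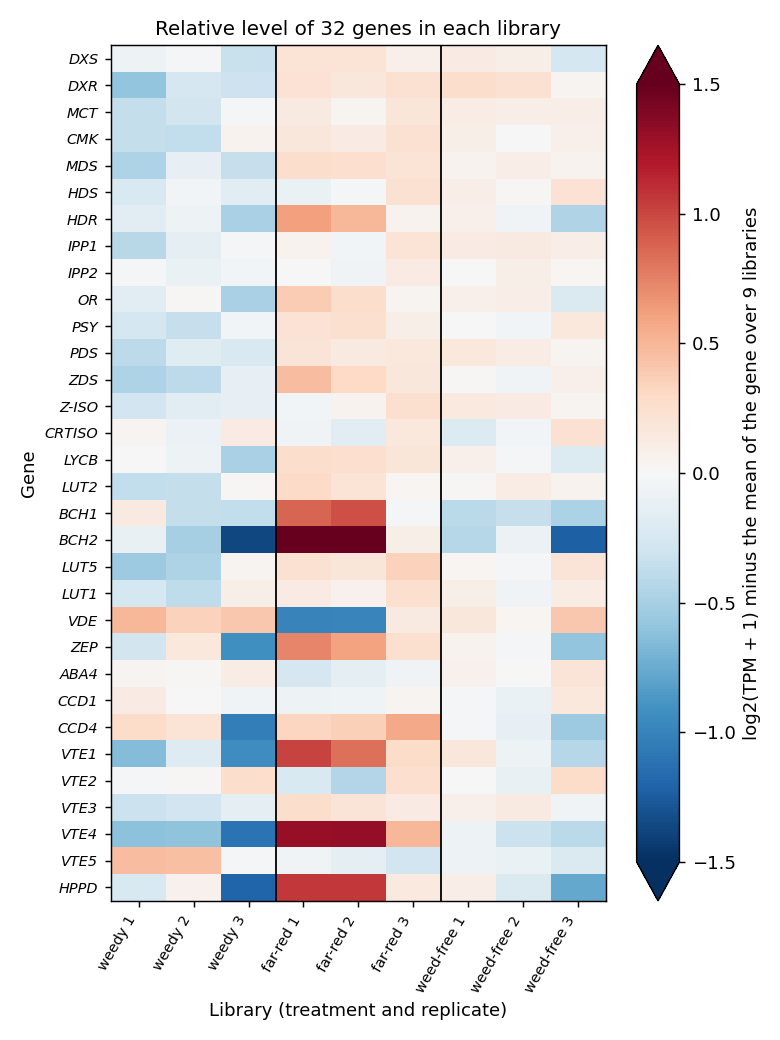
Log2(TPM + 1) of 32 members in each library, minus the mean of the gene over 9 libraries, with weedy, far-red and weed-free libraries from left to right and red for higher. Far-red replicates 1 and 2 stood out most for *BCH1*, *BCH2*, *VDE*, *VTE4* and *HPPD*, and far-red replicate 3 was nearer to the mean of each of these genes.

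Clock genes also set far-red replicates 1 and 2 apart from the other libraries. *CCA1*, a morning clock gene, had 5.24, 3.61 and 1.47 TPM in weedy leaves, 37.0, 40.9 and 8.21 TPM in far-red leaves and 4.12, 4.55 and 1.27 TPM in weed-free leaves. *LHY*, its partner, had 1.41, 0.87 and 0.648 TPM in weedy leaves, 7.58, 8.86 and 1.13 TPM in far-red leaves and 0.665, 0.704 and 0.444 TPM in weed-free leaves. Far-red replicates 1 and 2 were thus highest for both, and replicate 3 was the lowest library of each treatment. The evening genes ran the other way. *TOC1* had 53.4, 38.1 and 81.4 TPM in weedy leaves, 3.74, 3.57 and 16.3 TPM in far-red leaves and 22.2, 24.2 and 71.6 TPM in weed-free leaves. *ELF4* had 141, 143 and 439 TPM in weedy leaves, 3.86, 3.27 and 80.2 TPM in far-red leaves and 108, 104 and 449 TPM in weed-free leaves. Of 13 clock genes 6 were higher and 3 lower in weedy than in far-red leaves, and 0 passed in either comparison with weed-free, where the unadjusted p was under 0.05 for 1 gene in weedy leaves (higher) and for 11 in far-red leaves (5 higher, 6 lower). With the replicate number as a block 5 clock genes were higher and 5 lower in far-red leaves than in weed-free leaves, the 4 named among them. Their part in the member differences was not tested.

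Genes induced by shade were read as a check of the treatments. *PIL1* had 7.27, 6.17 and 6.67 TPM in weedy leaves, 26.3, 25.2 and 16.1 TPM in far-red leaves and 1.18, 1.68 and 0.925 TPM in weed-free leaves. *ATHB2* had 77.5, 70.2 and 78.2 TPM in weedy leaves, 103, 99.7 and 75.4 TPM in far-red leaves and 28.1, 30.1 and 25.6 TPM in weed-free leaves. Both rose against weed-free in both treatments. Of 10 shade genes 8 were higher in weedy and 3 in far-red leaves than in weed-free leaves (4 in far-red leaves with the replicate number as a block).

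**Figure D5:**
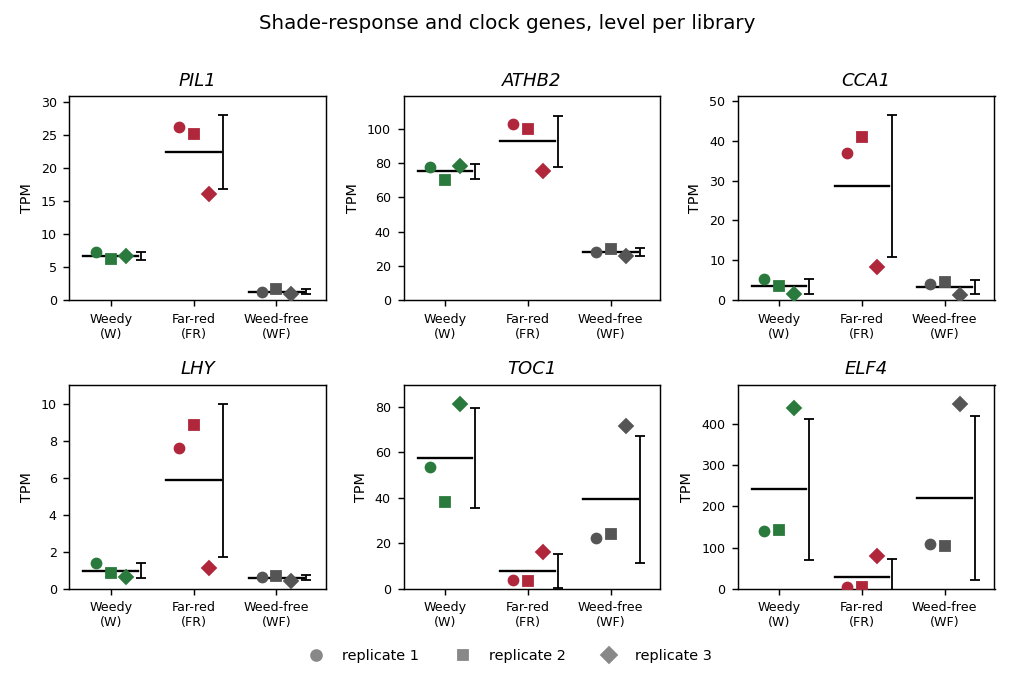
TPM of 2 shade genes (*PIL1*, *ATHB2*) and 4 clock genes in each library, with weedy, far-red and weed-free leaves from left to right, symbols for the replicate, a line at the mean and a bar of 1 SD (n = 3). Far-red replicates 1 and 2 lay highest for *CCA1* and *LHY* and lowest for *TOC1* and *ELF4*, and replicate 3 lay highest in each treatment for *TOC1* and *ELF4*.

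Markers of other leaf cells also moved between weedy and far-red leaves. The 6 epidermis and guard cell markers summed to 69.0 to 89.7 TPM in weedy leaves, 57.3 to 65.6 TPM in far-red leaves and 61.2 to 66.1 TPM in weed-free leaves. Of the 5 of them tested, 3 were higher and 0 lower in weedy than in far-red leaves. The 5 vascular markers summed to 58.5 to 75.2 TPM in weedy leaves, 53.5 to 57.5 TPM in far-red leaves and 61.2 to 70.5 TPM in weed-free leaves, and 2 were higher and 1 lower in weedy than in far-red leaves. The 5 mesophyll markers summed to 96300 to 103000 TPM in weedy leaves, 93800 to 98000 TPM in far-red leaves and 86800 to 100000 TPM in weed-free leaves. Of these 1 was higher and 2 were lower in weedy than in far-red leaves. The part of these markers in the member differences was not tested.

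Exons of 16 of the 33 members share bases with a gene on the opposite strand, *GGPPS11* in full. Of the 17 tested members without such overlap 7 were lower and 1 was higher in weedy than in far-red leaves, and of the 15 with it 11 were lower and 1 was higher. The deposited table of normalized counts gave another picture. It held 1.68 to 5.03 M reads per library, and across its 16587 genes shared with the TPM tables the Spearman correlation of mean reads with mean TPM was 0.10, given as a description across genes. *PSY* had 3 to 29 reads there, against a mean coverage of 225 to 933 reads per base in the TPM tables, and *RBCS1A* had 1008 to 6797 reads against 71761 to 454363. Member means ranged from 1.67 to 925 reads, with 13 of 33 under 10. On these counts 20 members could be tested. Between weedy and far-red leaves limma called 1 higher and 0 lower, edgeR 1 higher and 1 lower, and DESeq2 1 higher and 0 lower. The higher one was *VDE* in each, and the lower one *HDR*. Where genes overlap, the table of counts followed the opposite strand. Over 4174 genes that share at least 100 exon bases with genes on the opposite strand, the Spearman correlation of mean reads was 0.05 with the coverage of the gene itself and 0.58 with that of the opposite exons, again as a description across genes. These genes held 86.3% of the reads, against 20.8% of the coverage in the TPM tables. Over 9876 genes without such overlap the correlation with the coverage of the gene itself was 0.42, at a median of 4.22 mean reads against 32.3 with overlap. A count of a member that shares such bases may thus be of its opposite neighbour. *VDE* shares 464 bases and *HDR* none. The counts were not taken as a second measure of the same genes, and the calls above rest on the TPM tables.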

How the data were processed

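RNA of 9 leaf pools was sequenced by the authors from Illumina libraries. Reads were aligned to the TAIR10.1 assembly with Bowtie2 2.4.3, counted with HTSeq 0.13.5 and scaled with DESeq2 1.30.1, per the paper and the submitters' processing notes. The authors deposited a table per library of coverage (a signal, mean reads per base), FPKM and TPM, whose program and strand setting are not given in the sources used here, a table of normalized counts (signal values, gene counts over a size factor), and 1 table per comparison of their own fold changes and p-values, which were not used. The values of 3 gene IDs that occur more than once per library were summed, and 37145 of 37363 genes matched the RefSeq annotation. No column of another sample was used.

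Genes with at least 1 TPM in at least 3 of 9 libraries (17784) were compared on log2(TPM + 1) with limma 3.58.1 (trended, robust variance), all 9 libraries in a single fit. Tests were two-sided, with Benjamini-Hochberg adjustment over all genes and a threshold of 0.05. For the named genes exact permutation tests used scipy 1.17.1. Reads were recovered from the normalized counts (100% whole at a tolerance of 1e-06) and tested with edgeR 4.0.16 (quasi-likelihood) and DESeq2 1.42.0 in R 4.3.3. Alternatives changed the pseudocount, filter, scaling, variance model, libraries, replicate block and tool. The scripts were tested on simulated data. Members and lists were chosen with earlier results of these data known. TPM per library were given for members that passed in a comparison and for *DXS*, *IPP1* and *IPP2*, and others by range. From each further list of pathway genes up to 4 with the smallest adjusted p were named. The shade and clock genes named were *PIL1*, *ATHB2*, *CCA1*, *LHY*, *TOC1* and *ELF4*, by choice of name and not by p. Same-numbered libraries deviated together in each pair of far-red and weed-free leaves (correlations of 0.166 to 0.307), but not in each pair with weedy leaves (-0.03 to 0.27). Far-red replicate 1 also correlated with weed-free replicate 2 (0.136), and far-red replicate 2 with weed-free replicate 1 (0.08). Blocked values are given for far-red against weed-free leaves, and for the other comparisons only where the dependence on processing is described. The block was fitted over all 9 libraries, so same-numbered weedy libraries were also treated as paired. The labels do not say what a number stands for. The upstream sequence of 1 named member is not reported here.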

Additional observations from a re-analysis of the deposited data

How the results depend on the processing

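TPM leaves the depth out of the fit, and 3 libraries per treatment leave calls near the threshold open to single libraries. Between weedy and far-red leaves the member counts as reported were 18 lower and 2 higher. Only the 6 libraries compared gave 11 lower and 1 higher (2259 and 4151 of 17784 genes). No filter on low values gave 13 lower and 1 higher (2401 and 3937 of 26506 genes). Median-ratio scaling gave 23 lower and 1 higher (3862 and 3526 of 17784 genes). On the counts limma, edgeR and DESeq2 each gave 1 higher, with 0, 1 and 0 lower, where *ZDS* and *LYCB* reversed: 0.04 and 0.02 in limma, 0.03 for both in edgeR, and 0.03 for both in DESeq2. These counts followed the opposite strand, so they may not be values of *ZDS* and *LYCB*. Leaving out 1 library gave 6 to 19 lower and 0 to 2 higher, with 3743 to 7611 of all genes called in either direction.

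For weedy leaves against weed-free (1 lower, 0 higher), median-ratio scaling gave 6 lower, adding *PSY*, *PDS*, *ZDS*, *LUT5* and *MCT*, where 7.66% of all genes were lower. On counts limma, edgeR and DESeq2 gave 0. Leaving out 1 library gave 0 to 5 lower and 0 to 1 higher, with 191 to 2970 of all genes called in either direction. For far-red leaves against weed-free (2 higher, 0 lower), no filter, median-ratio scaling and only the 6 libraries compared each gave 1 higher, and the counts 0 with each tool. Leaving out 1 library gave 0 to 5 higher and 0 to 1 lower, with 122 to 2014 of all genes called in either direction. Without the replicate 3 libraries, chosen after seeing the data, weedy leaves had 12 lower and 3 higher (all genes, 9.02% and 19.4%), and far-red leaves 9 higher and 1 lower (all genes, 10.5% and 6.82%). Under median-ratio scaling 45.7% of 2512 genes called between weedy leaves and weed-free were higher, against 64.8% of 1702. The cause of these changes was not tested, except that fewer members were tested on counts and that counts of overlapping genes followed the opposite strand.

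Libraries with the same replicate number had deviations from their group means that correlated by 0.166 to 0.307 between far-red and weed-free leaves and by -0.03 to 0.27 in pairs with weedy leaves. Across numbers, far-red and weed-free replicates 1 and 2 correlated by 0.136 and 0.08. The block was fitted over all 9 libraries, so it also paired weedy libraries, for which the correlations give less reason. With the replicate number as a block members numbered 3 lower and 1 higher in weedy leaves against weed-free (901 and 1384 of all 17784 genes). In far-red leaves against weed-free they were 7 higher and 1 lower (819 and 649 of all genes). Between weedy and far-red leaves 19 were lower and 2 higher (2763 and 4742 of all genes). The block added *BCH2*, *VTE1*, *HPPD*, *HDR*, *ZEP* and *VDE* for far-red leaves against weed-free (adjusted p from 0.00137 to 0.0495). It added *PDS*, *VTE4* and *VTE5* for weedy leaves against weed-free (0.0412 to 0.0489), and *DXS* between weedy and far-red leaves (0.0397). Of the log2 differences named, 287 of 396 values under the alternatives kept direction and side of the threshold between weedy and far-red leaves, 103 no longer passed and 6 reversed.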

Other observations

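Further genes of these pathways are read against all genes tested, of which 13.6% were lower and 23.8% higher in weedy than in far-red leaves, with a median log2 difference of 0.15. Of 8 tested further carotenoid and apocarotenoid genes 1 was higher and 4 were lower in weedy than in far-red leaves. *NCED3* (AT3G14440), which makes the abscisic acid precursor xanthoxin under drought, had 13.5, 9.52 and 8.59 TPM in weedy leaves, 3.4, 3.29 and 4.38 TPM in far-red leaves and 6.2, 4.74 and 4.94 TPM in weed-free leaves. It was the one gene of the list to pass against weed-free without a block, higher in weedy leaves by 0.86 ± 0.18 on the log2 scale (adjusted p = 0.0174). The plastoglobule protein *FBN1A* had 95.8, 124 and 82.1 TPM in weedy leaves and 516, 473 and 240 TPM in far-red leaves, with 197, 170 and 175 TPM in weed-free leaves. This was a log2 difference of weedy from far-red leaves of -1.96 ± 0.27 (adjusted p = 0.000876). With the replicate number as a block *FBN1A* and *D27* were higher in far-red leaves than in weed-free leaves. *D27*, a carotenoid isomerase of strigolactone synthesis, was lower in weedy than in far-red leaves by a log2 difference of -1.32, and *FBN1B* by -0.40 (adjusted p = 0.00245 and 0.0258).

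Among 6 tested further genes of prenyl diphosphate supply 3 were lower and 1 was higher in weedy than in far-red leaves. The solanesyl diphosphate synthases of plastoquinone synthesis, *SPS1* and *SPS2*, had log2 differences of -1.02 and -1.74 (adjusted p = 0.00102 and 0.00122), and both were higher in far-red leaves than in weed-free leaves, by 0.80 and 1.18 (adjusted p = 0.0222 and 0.0394). *GPS1* differed by -0.41 (adjusted p = 0.0201), and with a block it was also higher in far-red leaves than in weed-free leaves. *GGPPS1* (AT1G49530) ran the other way, at 0.79 (adjusted p = 0.00155), and was also higher than in weed-free leaves, at 0.63 (adjusted p = 0.0187). *GGPPS1*, not taken here as a plastid gene, shares 461 exon bases with the opposite strand. Of 12 further tocopherol and prenylquinone genes 3 were lower and 2 higher in weedy than in far-red leaves, a share called near that of all genes. The lower ones included *CHLG*, the chlorophyll synthase, at -0.82, and the plastoglobule kinase gene *ABC1K3* at -0.67, and the higher ones *HGO*, which degrades homogentisate, at 0.83 (adjusted p = 0.0017, 0.00142 and 0.00222). *CHLG* was also the one gene of this list lower in weedy leaves than in weed-free leaves (-0.62, adjusted p = 0.0258).

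The cytosolic mevalonate pathway is the other source of IPP. Of its 12 genes 2 were higher and 0 lower in weedy than in far-red leaves, with a median log2 difference of 0.12, near the values over all genes. *HMG1* (AT1G76490), an HMG-CoA reductase gene of its controlling step, had 93.1, 63.4 and 67.6 TPM in weedy leaves, 19.6, 23.8 and 25.6 TPM in far-red leaves and 27.6, 25.8 and 30.3 TPM in weed-free leaves. It was higher by 1.65 ± 0.16 than in far-red leaves (adjusted p = 0.000148) and by 1.37 ± 0.16 than in weed-free leaves (adjusted p = 0.00275). Its paralog *HMG2* was higher by 0.42 than in far-red leaves (adjusted p = 0.0408).

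Among regulators, *PIF4* had 160, 117 and 127 TPM in weedy leaves, 56.8, 58.8 and 64.1 TPM in far-red leaves and 90.4, 93.2 and 98 TPM in weed-free leaves. It was higher than weed-free in weedy leaves (0.50, adjusted p = 0.0359) and lower in far-red leaves (-0.64, adjusted p = 0.0258). *HY5* had 3.13, 2.44 and 1.92 TPM in weedy leaves, 8.63, 10.2 and 5.74 TPM in far-red leaves and 3.44, 1.95 and 3.33 TPM in weed-free leaves, and was higher than weed-free in far-red leaves (1.23, adjusted p = 0.0158). Both genes were chosen after their values were seen, from a list of 6 regulators. The others, *PIF1*, *PIF3*, *PIF5* and *PIF7*, passed in neither comparison with weed-free. Between weedy and far-red leaves 3 of the 6 were higher and 1 was lower, where 23.8% and 13.6% of all genes were.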
